A study of Mus musculus with 2 samples.

Results

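Sites of N6-methyladenosine (m6A) in 10 genes that mark radial glia and astrocytes were examined in the cerebellum and cerebrum of a newborn mouse. The genes were Slc1a2, Slc1a3, Fabp7, Aldoc, Gja1, Aqp4, Vim, Nes, Gfap and Ptprz1, chosen by name out of 21951 coding genes. The choice was made with earlier results of these data known. A site belonged to a gene when it lay inside the gene's interval on the gene's strand, which gave 198 sites of 79355 in the cerebellum library and 289 of 188295 in the cerebrum library. Together these were 354 positions of the 219409 listed in either library, and 133 of them were listed in both. The 2 libraries came from the poly(A)+ RNA of 1 female F1r mouse at P0 (mother C57, father PWK), with GLORI+ treatment in both. There was 1 library per tissue, so no test between the tissues was possible, and differences below are differences between 2 libraries.

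GLORI deaminates unmethylated adenosines, which are then read as G, while an adenosine that carries m6A is still read as A. The mark is placed on messenger RNA by the METTL3-METTL14 complex, mostly at the motif DRACH (any base but C, then a purine, then A and C, then any base but G), and long exons and the surroundings of stop codons are known to carry much of it. Radial glia are the progenitors that line the ventricles of the developing brain, and many of them become astrocytes, the cells that clear glutamate, buffer water and ions and ensheath synapses. The deposited lists give positions only. The methylation level and the read depth behind a site were therefore unknown, and an adenosine missing from a list may lack the mark, lie in RNA that is not expressed or have too few reads. In whole tissue, fewer cells of a type and less RNA per cell cannot be told apart.

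The tissue labels were set against marker genes of the cerebellar granule lineage, of which 3 of 5 had a DRACH site in each library. Barhl1 had 11 DRACH sites in the cerebellum library and 0 in the cerebrum library, while Neurod1 had 0 and 15. Zic1 had 14 in each, Zic2 had 6 and 8, and Atoh1 had 0 in each. Most of the glial genes were covered in both tissues. At least 1 site was listed for 9 of the 10 genes in the cerebellum library and for all 10 in the cerebrum library, against 41.2% and 57.4% of all coding genes. Markers of other cells were counted too. Over all coding genes, 35.0% and 45.2% had a DRACH site (cerebellum and cerebrum), and of the 10 glial genes 7 and 10 had one. DRACH sites were found in 9 and 10 of 10 neuronal genes (cerebellum and cerebrum), 6 and 6 of 10 genes of the oligodendrocyte lineage, 3 and 5 of 10 microglial genes, 3 and 3 of 10 endothelial genes and 0 and 2 of 10 genes of the choroid plexus and ependyma. Their part in the results was not tested.

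The sequences around one DRACH site of each gene show the motif in place. For each gene the site nearest the stop codon on the longest coding isoform was taken, from the sites found in both libraries where there were any. No DRACH site of Fabp7 lies on its longest isoform, so its site was taken on Fabp7-201. The line gives 12 nt on either side, 5′ to 3′ on the gene's strand, with the 5 bases of the motif in capitals and the methylated adenosine in their middle. No sequence is shown for Aqp4.
Slc1a2 (GRCm38 chr2:102781553-102781577, plus strand): attcttgaatAAACTccccagcgta
Slc1a3 (GRCm38 chr15:8636115-8636139, minus strand): agatgtagacGGACAgagaagtgct
Fabp7 (GRCm38 chr10:57788175-57788199, plus strand): agagatgacaGGACTtttgacaact
Aldoc (GRCm38 chr11:78326352-78326376, plus strand): tgaggcacgcTGACTctacccacag
Gja1 (GRCm38 chr10:56388590-56388614, plus strand): tgctggacacGAACTccagccctta
Vim (GRCm38 chr2:13574673-13574697, plus strand): aagactcggtGGACTtctcgctggc
Nes (GRCm38 chr3:87980365-87980389, plus strand): caatgatgagTGACTctcatcatct
Gfap (GRCm38 chr11:102888373-102888397, minus strand): tagagagattTAACAaatcacttcc
Ptprz1 (GRCm38 chr6:23002648-23002672, plus strand): tggaaacagaTGACAcaggcatagc
The sites of Slc1a2, Slc1a3, Aldoc, Gja1, Vim and Ptprz1 were in both libraries, and those of Fabp7, Nes and Gfap in the cerebrum library only. Their distance from the stop codon differed widely. The Slc1a3 adenosine lay 5 nt past it, that of Aldoc 10 nt past it, that of Fabp7 14 nt past it on the isoform Fabp7-201 and that of Slc1a2 31 nt past it. In Gfap and Nes the distance was 292 nt and 347 nt into the 3′ UTR. The adenosines of Gja1 (93 nt before the stop codon), Vim (1147 nt) and Ptprz1 (2191 nt) were in coding sequence.

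The sites were spread very unevenly over the 10 genes. Ptprz1 held 75 of the 136 DRACH sites in the cerebellum library and 77 of the 152 in the cerebrum library. Slc1a2 (16 and 25), Gja1 (15 and 16), Slc1a3 (12 and 13) and Aqp4 (16 and 7) followed. Nes (0 and 5), Gfap (0 and 3), Fabp7 (0 and 2), Aldoc (1 and 2) and Vim (1 and 2) had few.

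**Figure D1:**
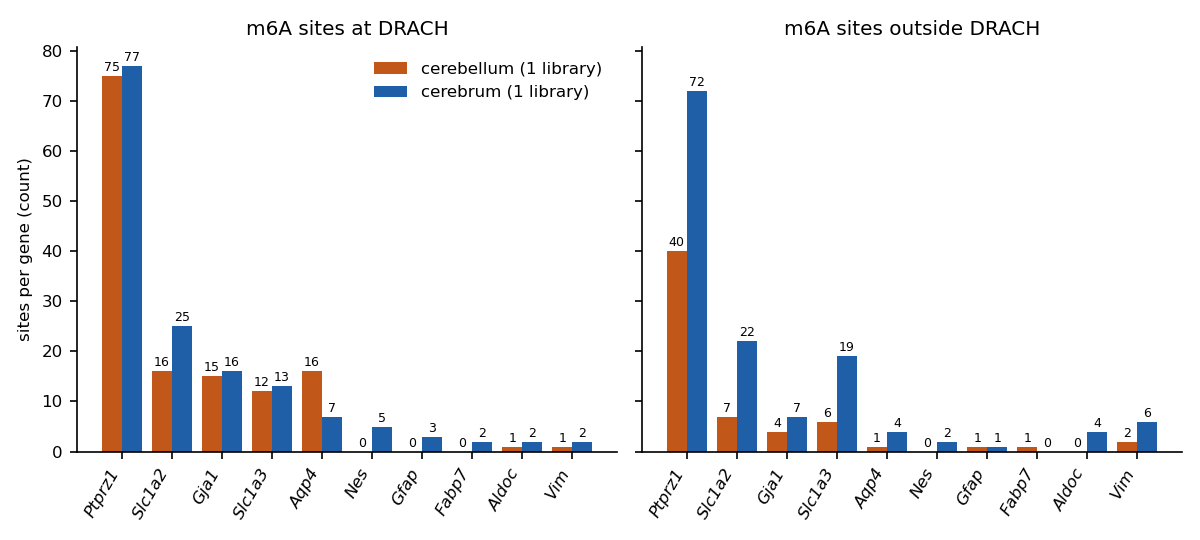
Number of m6A sites in each gene, at DRACH (left) and outside it (right), in the cerebellum library (orange) and the cerebrum library (blue), with the count above each bar. Ptprz1 has 75 and 77 DRACH sites, and Aqp4 is the one gene with more DRACH sites in the cerebellum library (16 against 7).

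The share of sites at DRACH was 68.7% in the cerebellum library (136 of 198, 95% Wilson interval 61.9 to 74.7) and 52.6% in the cerebrum library (152 of 289, 46.8 to 58.3). Over all sites of the libraries it was 62.1% and 46.7%. These intervals, and all others given here, cover counting error over sites only, and neighbouring sites of a gene share its RNA. The motif and the agreement between the libraries went together: 109 of the 133 sites found in both libraries were at DRACH (82.0%, 74.6 to 87.6), against 27 of 65 found in the cerebellum library only (41.5%) and 43 of 156 found in the cerebrum library only (27.6%).

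Sites outside DRACH differed in the same way, but most of the shared ones were in a single exon. Of the 24 found in both libraries, 20 lay in the longest exon of Ptprz1, all of them 1 letter away from DRACH. Too few shared sites lay elsewhere to show whether the other genes differ in this way. Over all 24, 23 were 1 letter away from DRACH. Of those found in 1 library it was 22 of 38 (cerebellum, 57.9%) and 34 of 113 (cerebrum, 30.1%, 22.4 to 39.1), while among the uncalled adenosines outside DRACH on the longest isoforms of the 10 genes it was 39.0% (4503 of 11549). These uncalled adenosines are of spliced transcripts, whereas 59 of the 113 sites lie in introns. In exons alone, a split made after the data were seen, 18 of 54 cerebrum-only sites outside DRACH were 1 letter away from it (33.3%, 22.2 to 46.6). Of the cerebellum-only sites it was 19 of 26 (73.1%, 53.9 to 86.3).

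Ptprz1 encodes a receptor-type protein tyrosine phosphatase of glial cells that carries chondroitin sulphate, and its secreted extracellular part is known as phosphacan. The gene lies on the plus strand (GRCm38 chr6:22875502-23052916), and its longest isoform, Ptprz1-201, has 30 exons. Exon 12 is by far the longest, with 3547 nt (chr6:22999200-23002746), and codes for part of the extracellular region. In the cerebellum library 53 of its 74 DRACH adenosines were called, and in the cerebrum library 53 of 74 as well (71.6%, 60.5 to 80.6 in each). Of these, 52 were the same adenosines, and 54 were called in at least 1 library.

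No other exon of the transcript had a DRACH site. The other 29 exons hold 4521 nt and 101 DRACH adenosines, of which 0 were called in either library, which allows a share of up to 3.66% by the Wilson interval. That includes the last exon, with 945 nt, 24 DRACH adenosines and the stop codon, where m6A is often found. Most of the 101 lay near exon junctions. Of the 84 DRACH adenosines of Ptprz1 under 100 nt from a junction, only 7 were in the long exon. Over all coding genes with a site, 1.05% and 1.63% of such adenosines were called (cerebellum and cerebrum). At 100 nt or more the last exon had 0 of 22 called, against 7.38% and 9.82% in last exons over all coding genes. The 0 of 101 is therefore not a like comparison with the long exon. Over the whole isoform 30.3% of the DRACH adenosines were called in each library (53 of 175), which put Ptprz1 at rank 81 of 8882 coding genes with a site in the cerebellum library and at rank 301 of 12360 in the cerebrum library, where the median gene had 3.43% and 4.35%.

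Exon 12 of Ptprz1 was also set against other long exons. Among the exons of at least 1000 nt with at least 50 DRACH adenosines, on the longest isoforms of coding genes with a site, 0 of 3655 in the cerebellum library and 0 of 4515 in the cerebrum library had a higher share called. Their medians were 4.48% and 6.32%, and for exons other than the last one 12.1% (245 exons) and 19.1% (269 exons). With a minimum of 20 DRACH adenosines, 0 of 7333 and 1 of 9430 exons were higher. The minimum of 50 was chosen after the values of exon 12 had been seen, and the level of the transcripts, which decides how many reads cover an exon, is not in the lists.

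**Figure D2:**
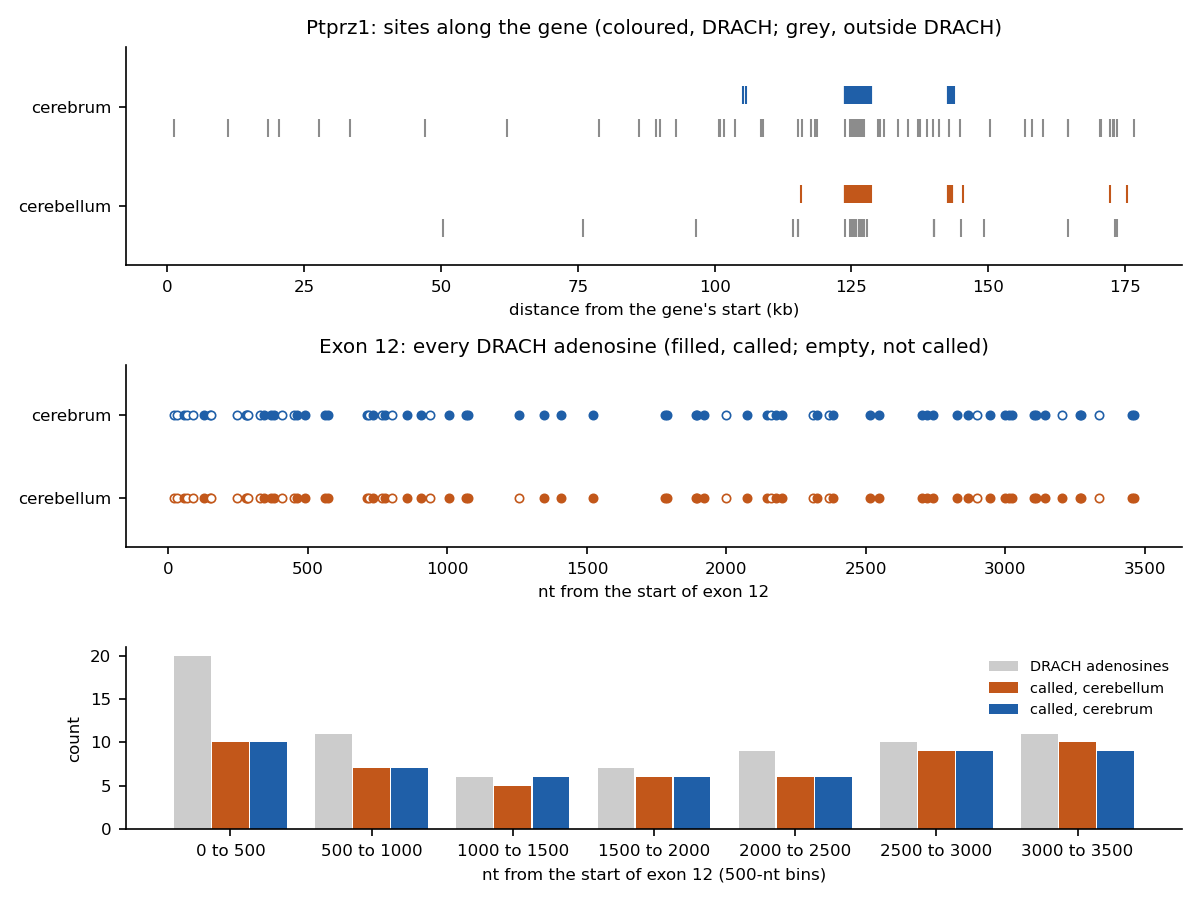
Ptprz1. Top, sites along the gene in each library (coloured, DRACH, grey, outside DRACH). Middle, the 74 DRACH adenosines of exon 12, filled where called and empty where not. Bottom, DRACH adenosines of exon 12 and those called in each library, per 500 nt. The 53 called adenosines of each library fill the exon, and the first 500 nt hold the lowest share (10 of 20 in each).

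Within exon 12 the calls differed with the letters of the motif. All 5 GGACA, all 6 TGACT, all 4 AGACT, all 4 GAACT, all 3 GAACA and both GGACT motifs were called in both libraries, and none of the 2 TAACC motifs in either. With G at the second base 34 of 41 were called in each library, and with A 19 of 33. With T at the fifth base 21 of 23 were called in the cerebellum library and 20 of 23 in the cerebrum library, with A 25 of 34 in each, and with C 7 and 8 of 17. By position, 3 of the 7 DRACH adenosines under 100 nt from an end of the exon were called, against 50 of 67 farther inside. The numbers were the same in each library, and 7 adenosines are too few to show a difference with position.

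Exon 12 also held most of the sites outside DRACH that both libraries listed. It had 24 sites outside DRACH in the cerebellum library and 22 in the cerebrum library. Of these, 20 were in both, out of 24 over all 10 genes. All 20 were 1 letter away from DRACH, 7 of them at the second base, 6 at the fourth, 4 at the fifth and 3 at the first.

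Some called adenosines of exon 12 lay almost side by side. In 4 places both libraries listed 2 DRACH adenosines 5 or 6 nt apart. They are shown with both motifs in capitals, and in the second line the motifs touch.
Ptprz1 (GRCm38 chr6:22999468-22999490, plus strand): cttctcAGACTgGAACTaacctg
Ptprz1 (GRCm38 chr6:23001082-23001103, plus strand): gaaatgAGACTGAACTgaaaat
Ptprz1 (GRCm38 chr6:23002295-23002317, plus strand): aatgaaTGACTcGGACAcccagg
Ptprz1 (GRCm38 chr6:23002457-23002479, plus strand): aaaagaGGACAgTGACAtccaaa
The reads needed to tell whether both adenosines of a pair are methylated on the same molecule are not part of the lists.

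Isoforms of Ptprz1 differ in this exon. Ptprz1-204, a shorter isoform, keeps 1000 nt of exon 12 and leaves out 2547 nt. In the part that it leaves out 36 of 43 DRACH adenosines were called in each library (83.7%, 70.0 to 91.9), and in the part that it keeps 17 of 31 (54.8%, 37.8 to 70.8). The intervals overlap slightly. The first 500 nt of the exon had 10 of 20 called and the next 500 nt 7 of 11, in each library. A difference between the kept and left-out parts and one along the exon cannot be told apart here.

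Ptprz1-206 ends after exon 12. It has 12 exons, its stop codon lies just past the end of the long exon, and its 3′ UTR of 1927 nt runs on into what is intron 12 in the full-length form. In this extension (1932 nt, chr6:23002747-23004678) 10 of 37 DRACH adenosines were called in the cerebellum library and 11 of 37 in the cerebrum library (27.0% and 29.7%), 9 of them in both. The share was lower than in the exon itself, with intervals that do not overlap (15.4 to 43.0 and 17.5 to 45.8). Within 200 nt of the stop codon of Ptprz1-206, 3 of 4 DRACH adenosines were called, the same 3 in both libraries.

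A further group of Ptprz1 sites lay in an intron. Intron 14 had 15 DRACH sites (9 in the cerebellum library, 11 in the cerebrum library, 5 in both), and 14 of them fell into a stretch of 1065 nt (chr6:23018084-23019148) in which neighbouring sites were at most 500 nt apart. In this stretch 8 and 11 of the 37 DRACH adenosines were called (21.6% and 29.7%). It starts and ends on called sites, so its share is raised by how it was drawn. Over the whole intron 9 and 11 of 147 were called (6.12% and 7.48%). No exon of GENCODE M21 lies there. Among 3605 introns of coding genes with at least 1 DRACH site, 66 had more than 15, and the median was 1. The 5 sites found in both libraries are shown, with the motif in capitals.
Ptprz1 (GRCm38 chr6:23018213-23018237, plus strand): tcttaatcacAGACAattttccagc
Ptprz1 (GRCm38 chr6:23018291-23018315, plus strand): agtccttaagGAACTctcaaatttc
Ptprz1 (GRCm38 chr6:23018397-23018421, plus strand): attatgctatGAACAttcaatgact
Ptprz1 (GRCm38 chr6:23018407-23018431, plus strand): gaacattcaaTGACTtttccagccc
Ptprz1 (GRCm38 chr6:23018897-23018921, plus strand): tcttctcaaaTGACTcttcagtgtg
The third and the fourth line overlap by 15 bases, since their adenosines are 10 nt apart. The remaining introns of Ptprz1 held mainly sites outside DRACH: of 42 sites there in the cerebrum library 2 were at DRACH, and of 12 in the cerebellum library 2.

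Slc1a2 and Slc1a3 encode the glutamate transporters GLT-1 and GLAST, which take up glutamate from the synaptic cleft into astrocytes. In both, the DRACH sites were mostly in the last exon. Slc1a2 (chr2:102658659-102790784, plus strand) ends in an exon of 9322 nt, of which 9250 nt are 3′ UTR. All 16 DRACH sites of the cerebellum library and 23 of the 25 of the cerebrum library were in 3′ UTRs, and 14 were in both libraries.

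Within the long 3′ UTR of Slc1a2 the DRACH sites formed 2 groups. One lay within the first 1400 nt past the stop codon, with 5 of 23 DRACH adenosines called in the cerebellum library and 8 of 23 in the cerebrum library (21.7% and 34.8%). The other lay beyond 5800 nt, with 11 of 79 and 14 of 79 (13.9% and 17.7%), and 9 of the 11 and 12 of the 14 were between 8000 and 9000 nt, where there are 22 DRACH adenosines. Between the groups, over 4400 nt, 0 of 97 DRACH adenosines were called in either library, which allows a share of up to 3.81%. The limits of 1400 and 5800 nt were set after the positions had been seen.

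**Figure D3:**
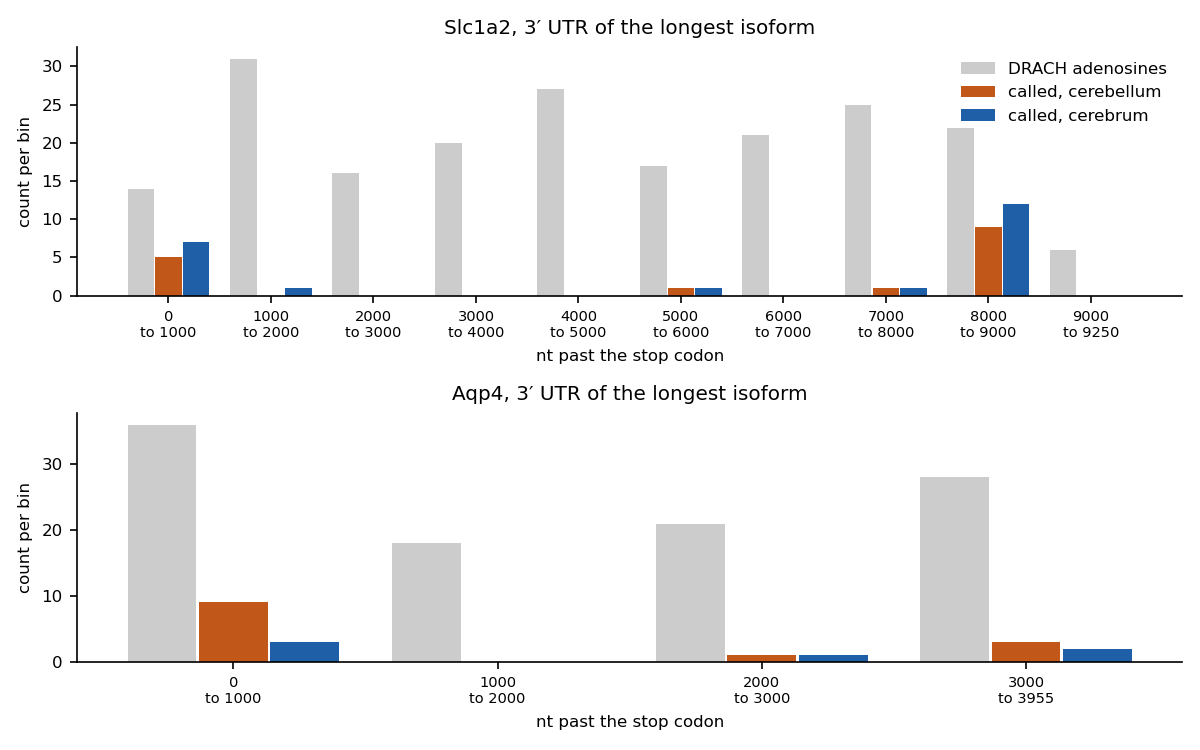
DRACH adenosines (grey) and those called in the cerebellum library (orange) and the cerebrum library (blue), in bins of 1000 nt past the stop codon, for the 3′ UTRs of Slc1a2 (9250 nt) and Aqp4 (3955 nt). The last bin of each is shorter. Slc1a2 has 5 and 7 called adenosines in the first bin, 9 and 12 between 8000 and 9000 nt, and none between 2000 and 5000 nt.

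Slc1a3 (chr15:8634124-8710764, minus strand) had 11 and 10 of the 54 DRACH adenosines of its last exon called (20.4%, 11.8 to 32.9, and 18.5%, 10.4 to 30.8). Around its stop codon 5 of 14 DRACH adenosines within 200 nt were called in the cerebellum library and 4 of 14 in the cerebrum library. The rest of its sites were of another kind. In the cerebrum library 16 of the 32 Slc1a3 sites were intronic, of which 2 were at DRACH, and in the cerebellum library 3 of 18 were intronic, of which 1 was.

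Both transporters are paralogs, with 52.1% of 526 aligned residues the same, so the coding sites were set side by side. Slc1a2 had 2 coding sites (cerebrum library only) and Slc1a3 had 5, and none shared an aligned codon. The Slc1a2 adenosines in codons 501 and 504 did lie 2 and 5 codons from the aligned position of an Slc1a3 site in codon 501, which was in both libraries. The surrounding bases are shown with the motif in capitals, and the windows of both Slc1a2 sites overlap.
Slc1a2 (GRCm38 chr2:102777498-102777522, plus strand): agtctgagctGGACAccattgactc
Slc1a3 (GRCm38 chr15:8636249-8636273, minus strand): gtcccgacatGAACTgaagaaccga
Slc1a2 (GRCm38 chr2:102777507-102777531, plus strand): tggacaccatTGACTcccaacaccg
In Slc1a2 these sites were in exon 10 of 11 and in Slc1a3 the site was in the last exon. The filament genes gave no pair either: of the coding sites of Vim, Gfap and Nes, none was within 5 aligned codons of a site in another.

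Gja1 encodes connexin 43, the main gap junction protein of astrocytes. Its coding sequence and 3′ UTR share exon 2, which has 2882 nt (gene at chr10:56377330-56402513, plus strand). Of the 56 DRACH adenosines of this exon, 15 were called in the cerebellum library (26.8%, 17.0 to 39.6) and 16 in the cerebrum library (28.6%, 18.4 to 41.5), and 13 were called in both. Per isoform this was 24.2% and 25.8%, the highest of the 10 genes after Ptprz1 (rank 203 of 8882 and 506 of 12360). The sites lay on both sides of the stop codon, 9 in coding sequence in each library, and 6 and 7 in the 3′ UTR. As in Ptprz1, pairs of DRACH adenosines 6 nt apart were called in both libraries, both in coding sequence.
Gja1 (GRCm38 chr10:56388413-56388435, plus strand): cactggTGACAgAAACAattcct
Gja1 (GRCm38 chr10:56388588-56388610, plus strand): gctgctGGACAcGAACTccagcc
Each sequence shows 2 motifs in capitals, separated by a single base.

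Aqp4 encodes aquaporin 4, the water channel of astrocyte endfeet. It was the one gene of the 10 with more DRACH sites in the cerebellum library, 16 against 7, with 6 in both. Of all 10231 coding genes with a DRACH site, 7.24% had more in the cerebellum library. The 10 sites found in the cerebellum library only were spread along the transcript: 3 in coding sequence of exons 2 and 3, and 7 in the 3′ UTR. Within the first 1000 nt of the 3′ UTR, 9 of 36 DRACH adenosines were called in the cerebellum library and 3 of 36 in the cerebrum library, all 3 of them among the 9. Per isoform 12.5% (7.84 to 19.3) and 5.47% (2.67 to 10.9) of the 128 DRACH adenosines were called, and these intervals overlap. A difference in methylation, in Aqp4 RNA and in read depth cannot be told apart here.

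Vim, Nes and Gfap encode intermediate filaments, vimentin and nestin of radial glia and immature cells and GFAP of astrocytes. They had few sites. Of the DRACH adenosines of their longest isoforms, the cerebrum library had 4.55% called in Vim, 3.40% in Nes and 5.45% in Gfap. The median gene there had 4.35%. In the cerebellum library it was 2.27% in Vim and 0% in Nes and Gfap, where the median gene had 3.43%. Nes (chr3:87971078-87980451, plus strand) ends in an exon of 5031 nt, longer than exon 12 of Ptprz1, which holds 136 DRACH adenosines. Of these, 5 were called in the cerebrum library (3.68%, 1.58 to 8.32) and 0 in the cerebellum library (up to 2.75%), which listed no Nes site at all. Of the 5 sites, 4 were in coding sequence, 728 to 1794 nt from the start of the exon, and 1 was in the 3′ UTR.

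Gfap (chr11:102887336-102900912, minus strand) had 3 DRACH sites in its 3′ UTR, all in the cerebrum library only, and 1 further site in each library outside DRACH. Vim (chr2:13573927-13582826, plus strand) had 3 and 8 sites, of which 1 and 2 were at DRACH. The GGACT site of Vim in exon 1, shown above, was the one site of the 3 filament genes found in both libraries, and a second DRACH site (AGACT) lay 9 nt upstream of it in the cerebrum library. On its longest isoform 1 and 2 of 44 DRACH adenosines were called.

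Aldoc encodes aldolase C, a glycolytic enzyme of astrocytes, and Fabp7 the brain lipid-binding protein of radial glia. Aldoc (chr11:78322968-78327781, plus strand) had 1 DRACH site in the cerebellum library and 2 in the cerebrum library, all in the 3′ UTR, and the TGACT site 10 nt past the stop codon was in both. Its other 4 sites, in coding sequence and in the cerebrum library only, were outside DRACH. Fabp7 (chr10:57784881-57788450, plus strand) had 1 site in the cerebellum library, outside DRACH, and 2 DRACH sites in the cerebrum library, 1 in intron 1 and 1 in the 3′ UTR.

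**Figure D4:**
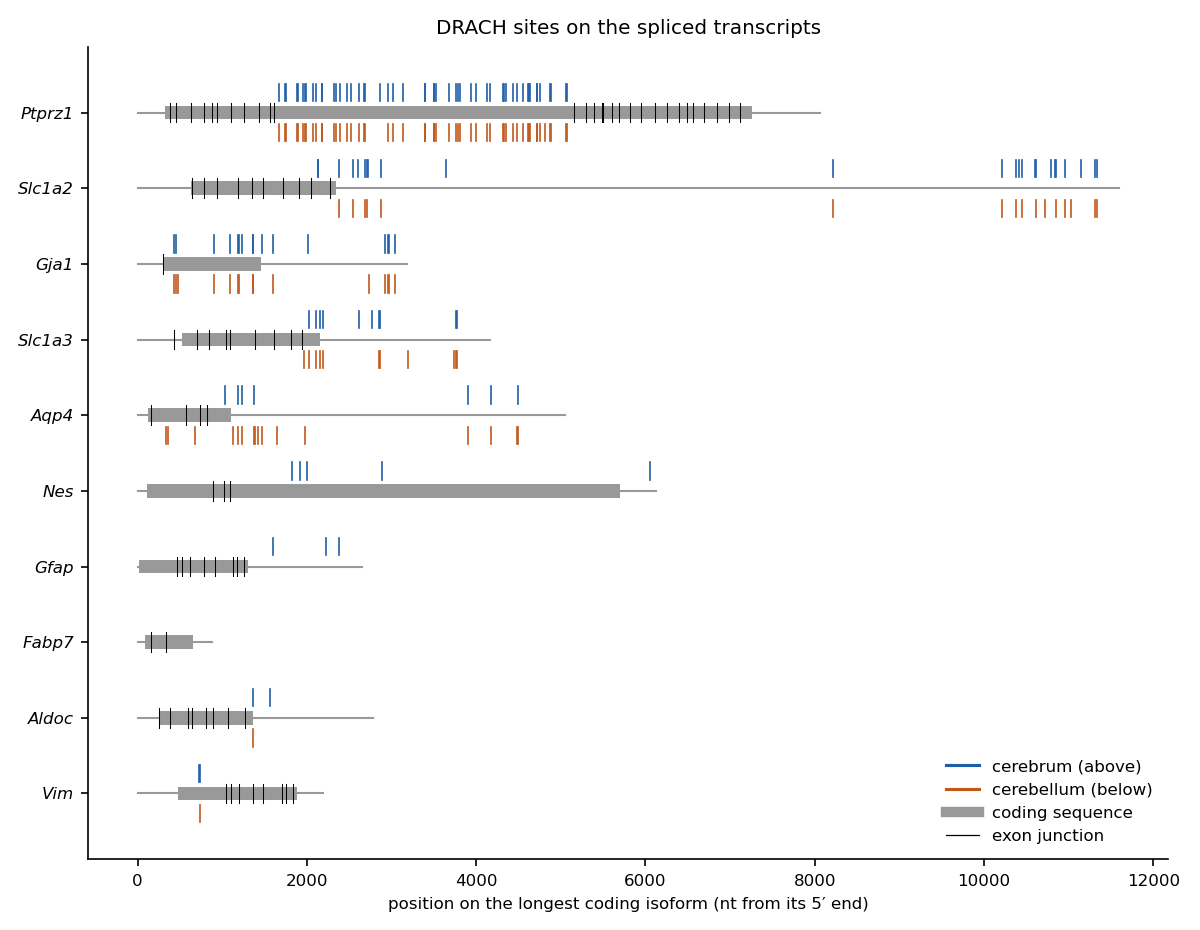
DRACH sites on the longest coding isoform of each gene, in nt from its 5′ end, in the cerebrum library (blue, above the line) and the cerebellum library (orange, below). Thick grey is coding sequence and black ticks are exon junctions. The sites of Ptprz1 fill exon 12 and leave the other exons empty. Those of Slc1a2 lie mostly towards both ends of its 3′ UTR, and the DRACH sites of Fabp7 are not on its longest isoform.

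Read over the 10 genes, the transcript regions were those of Ptprz1 to a large part. Of the sites on coding isoforms, 60% were in coding sequence in the cerebellum library (102 of 170, 52.5 to 67.1) and 53.9% in the cerebrum library (111 of 206, 47.1 to 60.6), against 40.9% and 43.0% over all coding genes. Without Ptprz1 the shares were 30% and 29.3%. None of the 123 and 135 DRACH sites was in a 5′ UTR, where the 10 isoforms hold 42 DRACH adenosines. Over all coding genes 2.74% and 2.87% of such sites were.

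Near the stop codon the 10 genes again split. Within 200 nt of it lay 11.4% of their DRACH sites in the cerebellum library (14 of 123, 6.90 to 18.2) and 11.9% in the cerebrum library (16 of 135, 7.43 to 18.4), against 21.9% and 22.0% over all coding genes. Without Ptprz1 it was 21.7% and 21.1%. Counted per DRACH adenosine in that window, 13 of 96 were called in each library (13.5%, 8.09 to 21.8), against 12.2% and 15.2% over all coding genes.

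Distance from exon junctions was followed as well. At 100 nt or more from a junction, 14% of the DRACH adenosines of the 10 longest isoforms were called in the cerebellum library (107 of 764, 11.7 to 16.6) and 15.2% in the cerebrum library (116 of 764, 12.8 to 17.9), where 8.0% and 10.6% were called over all coding genes with a site. Under 100 nt it was 2.44% in each library (6 of 246, 1.12 to 5.22), where 1.05% and 1.63% were called over all. Without Ptprz1 the values at 100 nt or more were 8.47% and 9.81%, close to those of all coding genes. For these 9 genes exons other than the last one had few calls at such a distance. It was 3 and 2 of 59 (5.08%, 1.74 to 13.9, and 3.39%, 0.935 to 11.5), against 11.2% and 14.6% over all coding genes. The interval of the cerebellum library includes the value of all coding genes, and that of the cerebrum library lies below it.

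**Figure D5:**
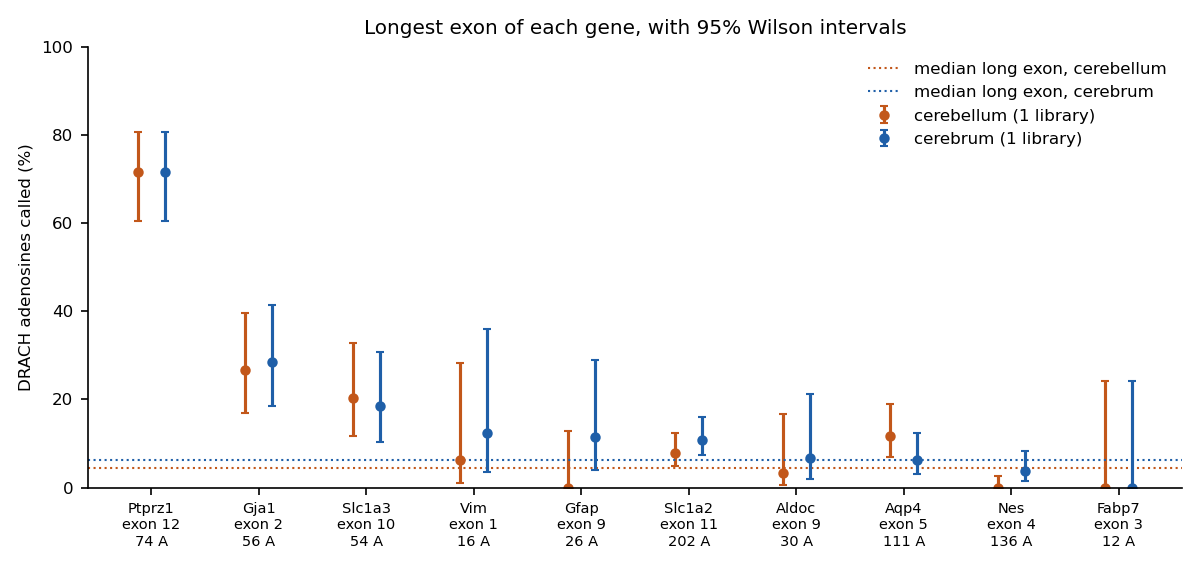
Share of DRACH adenosines called in the longest exon of each gene, with the exon's number and how many DRACH adenosines (A) it holds. Points are the cerebellum library (orange) and the cerebrum library (blue), and bars are 95% Wilson intervals. Dotted lines are medians over coding genes, of exons of at least 1000 nt with at least 50 DRACH adenosines (4.48% and 6.32%). The exons of Fabp7, Vim, Gfap and Aldoc hold fewer than 50. For such long exons other than the last one, as in Ptprz1, the medians are 12.1% and 19.1%. Exon 12 of Ptprz1 stands at 71.6% in both, followed by Gja1 (26.8% and 28.6%) and Slc1a3 (20.4% and 18.5%).

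The longest exon of each gene was set beside exon 12 of Ptprz1. Exon 12 of Ptprz1 had an interval above those of the other 9 exons in each library. The longest exons of Gja1 and Slc1a3 had the next highest shares in each library, with intervals that overlap each other. Slc1a2 (7.92% and 10.9%), Aqp4 (11.7% and 6.31%), Vim (6.25% and 12.5%), Aldoc (3.33% and 6.67%), Gfap (0 of 26 and 11.5%), Nes (0 of 136 and 3.68%) and Fabp7 (0 of 12 in each) were lower, and their order was not the same in the 2 libraries.

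The libraries shared most DRACH sites of these genes. Of the cerebellum DRACH sites 80.1% were in the cerebrum library (109 of 136, 72.7 to 86.0), close to the 81.0% over all sites. Of those in the cerebrum library 71.7% were in the cerebellum library as well (109 of 152, 64.1 to 78.3), against 45.3% over all sites. Ptprz1 carried part of this, and without it the shares were 70.5% (43 of 61) and 57.3% (43 of 75).

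The genes differed in how far the lists matched. Ptprz1 had 66 DRACH sites in both, which was 88% of its cerebellum sites and 85.7% of its cerebrum sites. Gja1 had 13 (86.7% and 81.2%) and Slc1a2 14 (87.5% and 56%). Nes, Gfap and Fabp7 had DRACH sites in the cerebrum library only. These are 3 of the 10 genes, where 25.0% of coding genes with a DRACH site had them in the cerebrum library only.

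Other glial genes, also chosen with earlier results of these data known, were counted for comparison. Of 32 further genes of astrocytes and radial glia, 25 had a site in the cerebellum library and 27 in the cerebrum library, against the 41.2% and 57.4% of all coding genes. A DRACH site was listed for 21 and 22 of the 32, against 35.0% and 45.2%. Summed over both libraries, the most DRACH sites were in Ncan, which encodes the proteoglycan neurocan (25 and 28), Tnc, which encodes the matrix protein tenascin C (16 and 23), and Id4, which encodes an inhibitor of DNA binding (16 and 15). None came near the 75 and 77 of Ptprz1. Of the 23 with a DRACH site in either library, 5 had more in the cerebellum library (Aldh1l1, S100b, Atp1b2, Id4 and Fgfr3), by 1 or 2 sites each, where 7.24% of all coding genes with a DRACH site did.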

How the data were processed

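GLORI sites of 1 cerebellum and 1 cerebrum library were used. The authors called them with GLORI-tools on mm10 and PWK-mm10, united both sets and required a rate of methylation over 0.1 from more than 8 reads. Their deposited files hold other values than levels: a chromosome, a genomic position and a strand per site, with no count, so depth is unknown. Incomplete deamination would leave an unmethylated A read as A, and its part was not tested. The cerebrum list carries the study's abbreviation for the cerebellum in its name, and tissues were taken as recorded per sample.

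Sites were matched to GENCODE M21 on GRCm38, not the release the study used, and assigned to the longest complete coding isoform that covers them. Members and lists were chosen with earlier results of these data known. All 10 members are named, with the sequences of the site nearest the stop codon, of sites without an A and of paralog pairs, plus close pairs and Ptprz1 intron 14, added after their positions were seen. The 32 glial genes are named for the 3 with most DRACH sites summed over both libraries. Shares have 95% Wilson intervals from scipy 1.17.1. Paralogs were aligned with Biopython 1.88, using Python 3.11.15, numpy 2.4.6 and matplotlib 3.10.9. Of 3000 simulated sites, region and position were recovered for all and the motif for 99.97%. Alternatives were the motif, isoform, window and left-out members. One list of marker genes is not reported here.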

Additional observations from a re-analysis of the deposited data

How the results depend on the processing

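Of the values under alternatives, 151 stayed within the 95% interval of the value as reported, or within 1.5 times of a count, and 25 did not. The DRACH share was 51.5% and 39.8% (cerebellum and cerebrum) with the narrower motif RRACH (a purine at the first base as well) and 82.0% in each with sites found in both libraries. Restricted in that way the cerebrum sites were 133, with 65.9% in coding sequence, 34.1% in 3′ UTRs and 0% in 5′ UTRs, and with DRACH sites alone the 5′ UTR share was 0% too. Leaving out Ptprz1 gave coding shares of 30% and 29.3%, 3′ UTR shares of 70% and 64.7%, stop codon shares of 21.7% and 21.1%, shares of DRACH adenosines called of 7.19% and 8.26%, and shares found in the other library of 70.5% and 57.3%. Leaving out Slc1a2 gave coding shares of 69.4% and 67.3% and 3′ UTR shares of 30.6% and 29.6%. With a window of 400 nt the stop codon shares were 20.3% and 23.7%. The comparisons of exon 12 under other limits and without Ptprz1 for the other library were chosen after seeing the data. No paired analysis was possible because each tissue had 1 library and no test between them was run. Read depth is not in the lists, so a missing site is no evidence of an unmethylated adenosine.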

Other observations

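Most intronic sites of the 10 genes were in Ptprz1 and Slc1a3. Of the 76 intronic sites of the 10 genes in the cerebrum library, 56 were in Ptprz1 and 16 in Slc1a3, and 21.1% were at DRACH (16 of 76, 95% Wilson interval 13.4 to 31.5). In the cerebellum library it was 48% (12 of 25, 30 to 66.5). Intron 14 of Ptprz1 held 11 of these 16 DRACH sites and 9 of the 12. Without that intron, a count added after the data were seen, 5 of 62 intronic sites were at DRACH in the cerebrum library (8.06%, 3.49 to 17.5) and 3 of 15 in the cerebellum library (20%, 7.05 to 45.2). In exons 63.8% (136 of 213) and 71.7% (124 of 173) were. Intronic sites made up 44.9% of the 156 sites found in the cerebrum library only, against 4.51% of the 133 found in both (intervals 37.3 to 52.7 and 2.08 to 9.49).

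One Ptprz1 site, in an intron and in the cerebrum library only, lies on a G of the mm10 sequence. The reads were mapped to a PWK version of the genome as well, and the PWK base was not looked up here. The 5 bases centred on the site are in capitals.
Ptprz1 (GRCm38 chr6:23006379-23006403, plus strand): agaattggaaCCGCTctagtgaaca

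A few sites outside DRACH came in pairs 6 nt apart at the letters ATC. In Nes both sites were in the cerebrum library, and in Gja1 each was in 1 library. Both 5-base windows are in capitals.
Gja1 (GRCm38 chr10:56388160-56388182, plus strand): agaaaaCCATCtTCATCatcttc
Nes (GRCm38 chr3:87978874-87978896, plus strand): gttcacCCATCcCGATCttgaca
Over the 10 genes there were 2 such pairs at a distance of 6 nt and 1 at 9 nt among the sites of both libraries together.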
